A study of Mus musculus with 8 samples.

Results

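The subject is the subunits of the respiratory chain and ATP synthase, the multi-protein complexes of the inner mitochondrial membrane that turn the oxidation of nutrients into ATP. Members were chosen by gene symbol alone. A gene entered if its symbol was that of a nuclear subunit of complex I (Ndufa, Ndufab, Ndufb, Ndufc, Ndufs or Ndufv and a number), complex II (Sdha to Sdhd), complex III (Uqcr), complex IV (Cox4 to Cox8) or complex V (Atp5), or if it was a protein-coding gene of the mitochondrial genome. This gave 100 of the 55359 genes in the table, 87 from the nuclear genome and 13 from the mitochondrial genome. RNA-seq had been run on mouse peritoneal mast cells (PMCs), wild-type and of the mixed strain C57BL/6x129/Sv, left untreated. Primary WT PMCs came from 3 female and 3 male biological replicates. The spontaneously transformed lines PMC-303 and PMC-306, which arose from aged PMC cultures, gave 1 library each. The sample labels state no sex for them, and the paper describes a male karyotype for PMC-306. The lines grew with less serum and less stem cell factor than the primary cultures, so line identity and medium cannot be told apart, and with 1 library a line no comparison has a replicate within a line.

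Complex I oxidises NADH and complex II oxidises succinate, and both pass electrons to coenzyme Q. Complex III hands them on to cytochrome c and complex IV to oxygen, and complexes I, III and IV pump protons whose return through complex V drives ATP synthesis. All subunits of complex II are nuclear-encoded, whereas complexes I, III, IV and V combine nuclear subunits with a few made inside the mitochondrion from its own genome, so their assembly draws on both genomes. Mast cells use this machinery both for growth and to fuel degranulation.

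Library depth ranged from 15918757 to 24180226 estimated counts. The 8 mast cell markers Kit, Fcer1a, Ms4a2, Cpa3, Cma1, Hdc, Gata2 and Il1rl1 were present at 1 CPM (counts relative to the library size, scaled by the trimmed mean of M values) or more in every library, with a summed level of 46567 to 73193 CPM in primary WT PMCs, 43292 in PMC-303 and 40046 in PMC-306. Markers of B cells, T cells, neutrophils, eosinophils and fibroblasts or mesothelium were all under 1 CPM in every library, with S100a8 and Epx at 0 throughout. Of 6 macrophage markers, 4 were under 1 CPM in every library and C1qb was at 0, but Adgre1 reached 426 CPM in PMC-306, and the summed level was 5.53 to 64.5 CPM in the primary cultures and 2.43 in PMC-303. The part of other cells in the results was not tested. In bulk RNA, fewer cells of a type and less RNA per cell cannot be told apart.

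Most nuclear subunits were higher in the lines, and the mitochondrially encoded ones were not. Of the 80 nuclear members with enough counts to test, 51 rose and 2 fell in the lines (limma on log2 CPM, adjusted p under 0.05 by Benjamini-Hochberg over all 14529 genes tested). Across all genes tested, 18.3% were called higher and 15.5% lower, against 63.8% and 2.50% of the nuclear members. Among the 78 nuclear members with a mean of at least 10 CPM the counts were 51 and 1, and 22.4% and 17.6% of all genes at that level were called. The lower call left out at that level was Cox6b2, which passed the filter on low counts only through the primary cultures. The median log2 difference of the tested nuclear members was 0.36, beside -0.01 for all genes. Whatever the test, both lines lay above the highest primary culture for 59 nuclear members and below the lowest for 2, and for all genes these shares were 23.0% and 20.1%. None of the 13 mitochondrial genes was called higher and 3 were called lower, a share of 23.1% that is near the 15.5% of all genes, and their median log2 difference was -0.50. The 7 members that could not be tested, Cox4i2, Cox6a2, Cox6c2, Cox7b2, Cox8b, Cox8c and a second row named Atp5o, reached at most 0.367 CPM in any library.

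**Figure D1:**
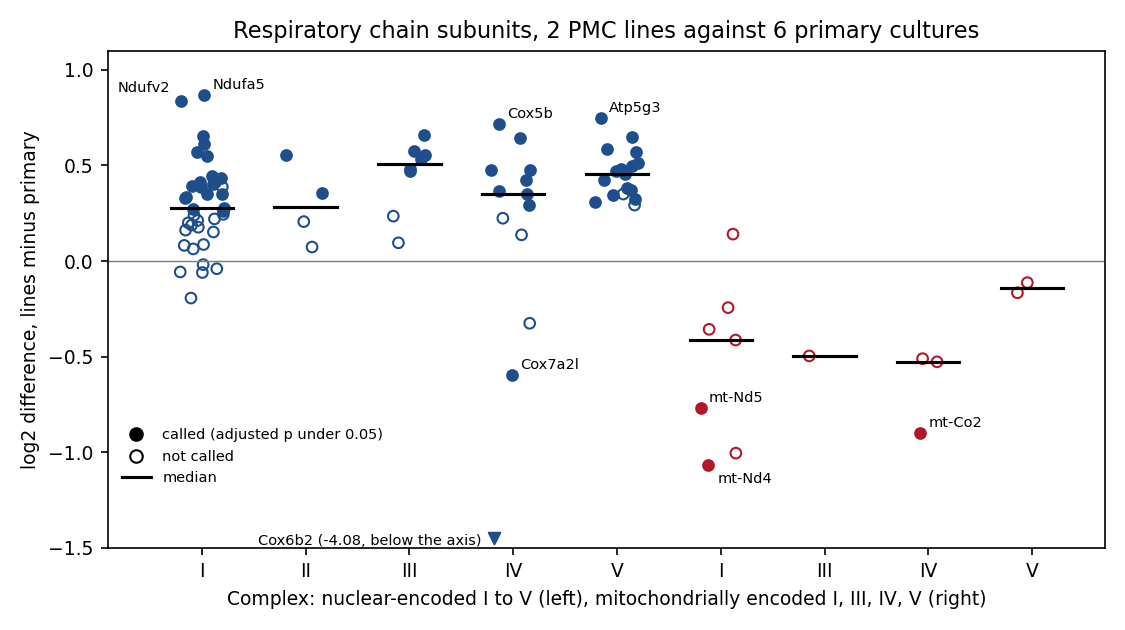
Log2 difference of the lines minus the primary WT PMCs for each tested subunit, nuclear complexes I to V on the left and the complexes' mitochondrially encoded subunits on the right. Filled points were called, open points were not, bars are medians (0.28, 0.28, 0.51, 0.35 and 0.46 for nuclear complexes I to V), and the triangle marks Cox6b2, which lies below the axis at -4.08.

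The size of the rise depended on the scale. Using total counts as library size moved the median of all genes by 0.11 and the deposited length-corrected levels (TPM) moved it by 0.14, and the nuclear median relative to all genes was 0.37, 0.37 and 0.38 on the 3 scales. The share of higher among all called genes was 54.2% in the reported fit, 67.2% with total counts and 70.8% with TPM, and the nuclear members called higher numbered 51, 66 and 51.

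Complex I, the largest of the complexes, had 38 nuclear members, all tested, of which 20 rose and none fell. Among its 7 nuclear core subunits, which carry the flavin and the iron-sulfur clusters, 4 rose, and among the 31 accessory subunits 16 did. Ndufa5, an accessory subunit of the peripheral arm, stood at 21.1 and 20.04 CPM in PMC-303 and PMC-306, and in primary WT PMCs at 9.49, 11.4 and 12.4 CPM (lowest, median and highest). The groups did not overlap, and the log2 difference was 0.87 ± 0.13 (SE, adjusted p = 0.00141), a 1.82-fold level. Ndufv2, a core subunit that binds an iron-sulfur cluster next to the NADH site, was at 62.8 and 67.1 CPM in the lines against 33.8, 36.3 and 38.5 CPM in the primary cultures. Its log2 difference was 0.84 ± 0.07 (adjusted p = 0.000141), and again every primary culture lay below both lines. Ndufs4, an accessory subunit of the NADH-oxidising module whose loss causes complex I deficiency in mouse and human, was at 28.4 and 29.5 CPM in the lines and at 17.3, 18.5 and 19.4 CPM in the primary cultures (log2 difference 0.65 ± 0.09, adjusted p = 0.000808).

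By position in complex I, 4 of 10 subunits of the NADH-oxidising module rose, 3 of 5 of the coenzyme Q-binding module rose, and 13 of the remaining 23, most of them of the membrane arm, rose. The remaining complex I members ranged in log2 difference from -0.19 for Ndufb4 to 0.61 for Ndufc2, both named after their values were seen. Ndufb4 shared reads with its near-copy Ndufb4c, which took 41.2% of their summed counts, so its value is uncertain. Ndufa4, named as a complex I gene but now counted as a subunit of complex IV, was at 85.0 and 81.3 CPM in the lines and at 64.3, 69.7 and 84.0 CPM in the primary cultures, and it did not pass the test (log2 difference 0.21 ± 0.12, adjusted p = 0.215).

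In complex II, the succinate dehydrogenase that also serves the tricarboxylic acid cycle, 2 of 4 members rose. Sdhb, the iron-sulfur subunit, was at 73.6 and 72.8 CPM in the lines and at 44.1, 48.4 and 60.01 CPM in the primary cultures (log2 difference 0.55 ± 0.12, adjusted p = 0.00901). Sdhd, a membrane anchor, was at 105 and 98.4 CPM against 71.4, 81.3 and 84.6 CPM (log2 difference 0.36 ± 0.08, adjusted p = 0.00903). For both genes the lines lay above all 6 primary cultures. The Sdhd call was lost without PMC-303 (adjusted p = 0.0513), and with only the female primary cultures the calls for Sdhd (adjusted p = 0.0682) and Sdhb (adjusted p = 0.0731) were lost. The flavoprotein Sdha, with a log2 difference of 0.21, and the anchor Sdhc, with 0.07, did not pass the test, and for Sdhc both lines lay within the primary range.

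Complex III had the highest median difference, 0.51 over 8 members, of which 6 rose. Its subunit Cyc1, whose symbol the rule did not take in, is given with the electron carriers. Uqcrq, a small subunit beside cytochrome b, was at 24.1 and 25.2 CPM in the lines and at 13.7, 15.6 and 17.8 CPM in the primary cultures (log2 difference 0.66 ± 0.11, adjusted p = 0.00304). Uqcr10, another small subunit, was at 45.9 and 49.1 CPM against 28.2, 32.2 and 34.5 CPM (log2 difference 0.58 ± 0.09, adjusted p = 0.00193). Uqcrb, which lies near the coenzyme Q site, was at 64.3 and 67.3 CPM against 41.2, 44.2 and 48.4 CPM (log2 difference 0.55 ± 0.08, adjusted p = 0.00121). The lines and the primary cultures did not overlap for any of these. The core proteins Uqcrc1 and Uqcrc2 and the Rieske iron-sulfur protein Uqcrfs1 also rose, with log2 differences of 0.48, 0.47 and 0.53, while Uqcrh (0.23) and Uqcr11 (0.10) did not pass the test.

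Among the nuclear subunits, complex IV alone had called members in each direction, 8 higher and 2 lower of 13 tested. Of the 2 lower calls, that of Cox6b2 had its direction set by the filter on low counts, which leaves Cox7a2l. Cox5b, a zinc-binding subunit on the matrix side, was at 91.0 CPM in either line and at 46.9, 56.7 and 61.2 CPM in the primary cultures (log2 difference 0.72 ± 0.10, adjusted p = 0.000983). Cox8a was at 175 and 150 CPM in the lines against 95.2, 103 and 117 CPM (log2 difference 0.64 ± 0.09, adjusted p = 0.0011). Cox7c, a small transmembrane subunit, was at 74.4 and 89.4 CPM against 54.8, 59.1 and 60.4 CPM (log2 difference 0.48 ± 0.08, adjusted p = 0.00285). All 3 lay above every primary culture in both lines.

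The subunits called lower were Cox7a2l and, with a direction set by the filter, Cox6b2. Cox7a2l, also called SCAF1, is a Cox7a relative that links complexes III and IV into supercomplexes. Its level was 120 CPM for PMC-303 and 146 CPM for PMC-306, and in the primary cultures at 181, 207 and 213 CPM. Both lines lay below all 6 primary cultures, and the log2 difference was -0.60 ± 0.10 (adjusted p = 0.00267). A near-copy, Gm6969, took 12.26% and 11.97% of the summed counts of Cox7a2l and itself in the lines. Its share was 0.211% to 0.303% in WT female 1, WT male 1 and WT male 2. In WT female 2, WT female 3 and WT male 3, Gm6969 took 5.39% to 6.18%. With its counts added to Cox7a2l, an alternative chosen after seeing the data, the lines were at 137 and 166 CPM, still below the primary range of 186 to 226 CPM, and the log2 difference was -0.46 ± 0.10 (adjusted p = 0.0101). C57BL/6 mice carry a short Cox7a2l allele, and the allele in these mixed-strain cells was not examined.

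Cox6b2, the testis form of subunit 6b, had no counts in either line. The primary cultures varied widely, with 0.527, 0.577 and 0.844 CPM in WT female 2, WT male 3 and WT female 3 and with 3.42, 3.985 and 3.996 CPM in WT male 2, WT male 1 and WT female 1. Against a floor of 3 counts per library, the mean of the primary cultures, 2.22 ± 1.74 CPM (SD, n = 6), was at least 18.02-fold that of PMC-303 and at least 15.1-fold that of PMC-306. The fitted log2 difference of -4.08 depends on the offset of 0.1 CPM, and with an offset of 1 CPM the call was lost (adjusted p = 0.0662). Cox6b2 passed the filter on low counts only through the primary cultures, so the direction of its call was set by the filter. The primary cultures with less Cox6b2 were those where Gm6969 took the larger share, and why was not tested.

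Complex IV subunits that come in isoforms were expressed almost wholly as their ubiquitous forms. Cox4i1 was at 158 and 168 CPM in the lines and at 141, 146 and 161 CPM in the primary cultures and did not pass the test (log2 difference 0.14 ± 0.07, adjusted p = 0.164), and Cox4i2, the lung form, had no counts in any library. Cox6a1 (log2 difference 0.35), Cox6b1 (0.36) and Cox7a2 (0.48) rose, as did Cox8a above, whereas the muscle or testis forms Cox6a2, Cox7b2, Cox8b and Cox8c were at or near 0. The call for Cox6a1 was near the threshold (adjusted p = 0.0316) and was lost under 8 of the 19 alternatives run, and that for Cox6b1 was lost without PMC-303 (adjusted p = 0.0583) and with only the female primary cultures (adjusted p = 0.0865). Cox7b, with a log2 difference of 0.22, did not pass the test. Cox7a1, the heart and skeletal muscle form, was the exception: it reached 8.77 CPM in PMC-303, above the primary range of 2.86 to 6.80 CPM, and at 1.42 CPM in PMC-306, below it.

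**Figure D2:**
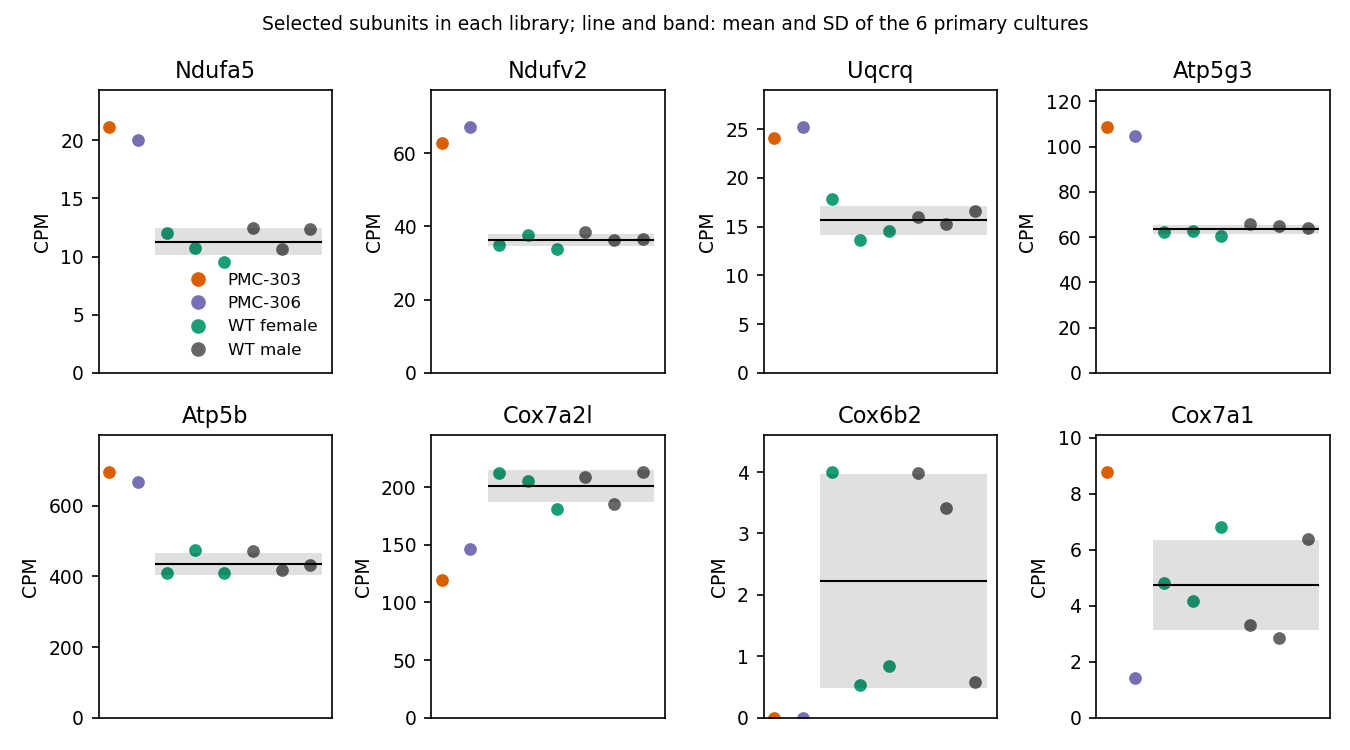
Level in CPM of 8 nuclear subunits in each library, with PMC-303 and PMC-306 first and then the 3 female and 3 male primary cultures. The line and band give the mean and SD of the 6 primary cultures, the lines lie above them for Ndufa5, Ndufv2, Uqcrq, Atp5g3 and Atp5b, below them for Cox7a2l and Cox6b2, and on opposite sides for Cox7a1.

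In complex V, the ATP synthase, 15 of 17 tested members rose and none fell, and both lines lay above every primary culture for 16. Atp5g3, which encodes the c subunit of the proton-driven ring, was at 109 and 105 CPM in the lines and at 60.6, 63.3 and 65.9 CPM in the primary cultures. The log2 difference of 0.75 ± 0.06 had the smallest adjusted p of all members (0.000101). Its sister genes Atp5g1 and Atp5g2, which encode the same mature protein, rose by log2 0.37 and 0.51, and a near-copy of Atp5g2, Gm10175, took 10.6% of their summed counts. Atp5b, the catalytic beta subunit of the F1 head, was at 695 and 667 CPM against 409, 424 and 475 CPM (log2 difference 0.65 ± 0.09, adjusted p = 0.000818). Atp5c1, the central rotor stalk, was at 210 and 215 CPM against 137, 140 and 150 CPM (log2 difference 0.59 ± 0.06, adjusted p = 0.000251). Of the 5 F1 genes 4 rose, and the fifth, Atp5e, had a log2 difference of 0.35 that missed the threshold (adjusted p = 0.0661). Atp5pb of the peripheral stalk was the only other tested member that did not pass (log2 difference 0.29, adjusted p = 0.0731), with 410 CPM in PMC-303, above the primary range of 270 to 304 CPM, and 301 CPM in PMC-306, inside it.

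Promoters of nuclear members were searched for motifs of NRF1, GABPA and YY1, factors known to control respiratory genes. RefSeq windows of 300 bases (250 before to 50 after the start, build GRCm38.p6) were found for 70 of 86 members and searched on both strands. The NRF1 core GCGCANGCG stood in 28.6% of the members' promoters and in 7.03% of all 27025 genes' promoters, the ETS core CCGGAAG bound by GABPA in 24.3% and 9.93%, and the YY1 core AAGATGGCG in 7 of the 70 and in 1.64% of all. The last 3 letters of the ETS core can be the first 3 of the YY1 core. At least 1 motif was present in 55.8% of the 43 members called higher and in 48.0% of the 25 tested members that were not called higher. By complex the share was 47.1% of 34 promoters in complex I, 3 of 3 in complex II and 60% of 5 in complex III. It was 23.1% of 13 in complex IV and 73.3% of 15 in complex V, beside 16.5% of all 27025 genes. A match describes the letters only and shows no binding. The mRNAs of these factors were measured as well: Nrf1 (log2 difference 0.78), Gabpa (0.52), Gabpb1 (0.53) and Gabpb2 (0.43) were called higher, and Yy1 did not pass the test (log2 difference 0.15, adjusted p = 0.24). The windows of 3 members among the largest rises of their complexes are printed, each with a different motif in capitals, YY1 for Ndufs4 (chr13:114388045-114388344, minus strand), ETS for Sdhb (chr4:140961021-140961320, plus strand) and NRF1 for Atp5g3 (chr2:73911277-73911576, minus strand), with the start at base 251.
Ndufs4: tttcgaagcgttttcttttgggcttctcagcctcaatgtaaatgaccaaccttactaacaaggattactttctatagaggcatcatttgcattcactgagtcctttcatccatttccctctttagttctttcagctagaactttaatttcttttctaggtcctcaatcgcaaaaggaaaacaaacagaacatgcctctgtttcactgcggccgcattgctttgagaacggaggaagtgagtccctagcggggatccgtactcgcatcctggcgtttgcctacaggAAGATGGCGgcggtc
Sdhb: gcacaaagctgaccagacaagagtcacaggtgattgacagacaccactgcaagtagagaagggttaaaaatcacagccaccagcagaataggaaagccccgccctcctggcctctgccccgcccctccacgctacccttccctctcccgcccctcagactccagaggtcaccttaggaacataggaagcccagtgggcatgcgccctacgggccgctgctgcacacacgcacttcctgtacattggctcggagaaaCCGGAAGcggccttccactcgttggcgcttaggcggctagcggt
Atp5g3: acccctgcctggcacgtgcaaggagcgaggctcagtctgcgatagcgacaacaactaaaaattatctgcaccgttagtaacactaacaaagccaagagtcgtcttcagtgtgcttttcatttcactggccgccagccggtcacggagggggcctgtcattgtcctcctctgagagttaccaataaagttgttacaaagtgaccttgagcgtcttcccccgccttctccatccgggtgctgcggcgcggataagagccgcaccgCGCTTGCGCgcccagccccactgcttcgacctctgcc

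The 13 protein genes of the mitochondrial genome sit close together on a circular DNA and are transcribed as long precursors, from which tRNAs are cut to release the mRNAs. A stretch of mitochondrial DNA has been copied into nuclear chromosome 1 (GRCm39 chr1:24650616-24655269, minus strand). It matched mt-Co2, mt-Atp8, mt-Atp6, mt-Co3 and mt-Nd4l along their whole length, the first 876 bases of mt-Nd4 and, with 1 substitution each, mt-Nd3 (T3C, counted from the first base of the gene) and the last 483 bases of mt-Co1 (A1066T). For most of these genes the counting had divided the reads between the mitochondrial gene and a pseudogene row for the copy. No such row with counts was found for mt-Atp8, and that of mt-Nd4, Gm28439, took 0.0373% of their summed counts. The start of mt-Nd3 (chrM:9459-9501) and of its copy Gm28438 (chr1:24652158-24652200, minus strand) show how little separates them, with the differing base in capitals.
mt-Nd3: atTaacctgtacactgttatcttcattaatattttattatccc
Gm28438: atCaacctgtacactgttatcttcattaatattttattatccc

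The rows of mt-Co2, mt-Co3, mt-Atp6, mt-Nd3 and mt-Nd4l kept 20.7 to 29.8%, 29.5 to 38.5%, 31.2 to 44.0%, 10.7 to 19.99% and 7.07 to 52.0% of the counts of gene and copy, whereas mt-Co1 kept 92.5 to 96.5%. For mt-Nd3 the share was 10.7 to 12.7% in the female and 17.4 to 17.7% in the male primary cultures, so the division itself differed between libraries. Levels are therefore given both as deposited and with the copies' counts added, a step chosen after seeing the data. Genes also overlap each other on the same strand: 43 bases are shared by mt-Atp8 and mt-Atp6 (chrM:7927-7969) and 7 by mt-Nd4l and mt-Nd4 (chrM:10167-10173), which makes their split uncertain too. The shared bases of mt-Atp8 and mt-Atp6 stand in capitals in a stretch of the genome (chrM:7897-7999, plus strand).
mt-Atp8/mt-Atp6: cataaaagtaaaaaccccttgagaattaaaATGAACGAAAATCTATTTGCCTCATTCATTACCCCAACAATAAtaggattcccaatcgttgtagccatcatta

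**Figure D3:**
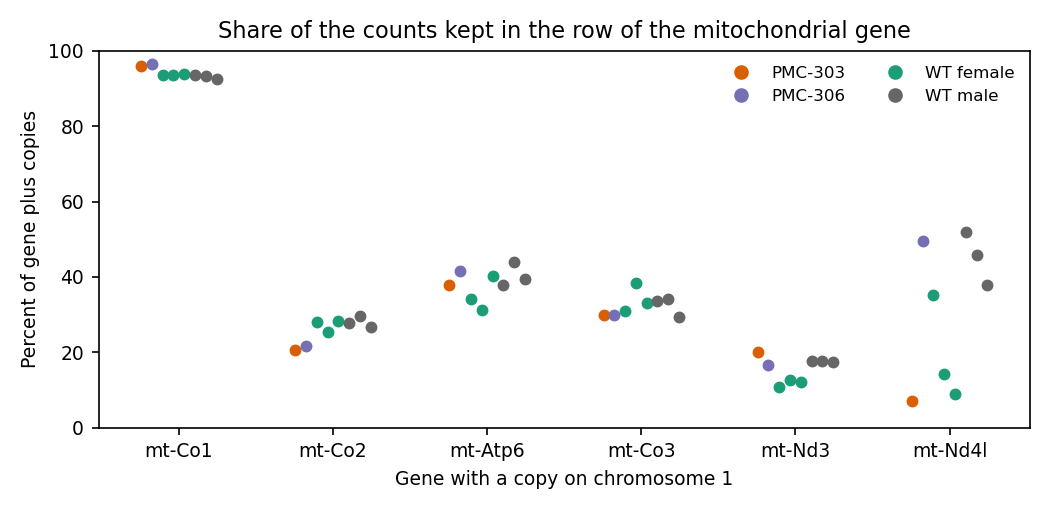
Percent of the counts of a mitochondrial gene and its nuclear copies that stood in the row of the mitochondrial gene, for 6 genes in each of the 8 libraries. The share was over 90% for mt-Co1 in every library, between 10.7 and 19.99% for mt-Nd3, and spread most for mt-Nd4l, from 7.07 to 52.0%.

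The mitochondrial genes called lower as deposited were mt-Nd4, mt-Nd5 and mt-Co2. The complex I core subunit mt-Nd4 was at 192 and 227 CPM in the lines and at 331, 428 and 556 CPM in the primary cultures (log2 difference -1.06 ± 0.19, adjusted p = 0.00321). Another complex I core subunit, mt-Nd5, was at 108 and 127 CPM against 152, 197 and 248 CPM (log2 difference -0.77 ± 0.17, adjusted p = 0.00982). For both, the lines lay below all primary cultures, and adding copies changed them little. The mt-Nd5 call was lost with TPM (adjusted p = 0.0531), without PMC-303 (adjusted p = 0.0795) and with only the female primary cultures (adjusted p = 0.0844). For mt-Co2, the copper-binding subunit of complex IV, the row gave 586 and 618 CPM against 957, 1099 and 1518 CPM (log2 difference -0.90 ± 0.17, adjusted p = 0.0045). With its copies added the difference was -0.52 and missed the threshold (adjusted p = 0.0626), although both lines, at 2837 and 2853 CPM, still lay below the primary range of 3404 to 5456 CPM.

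The other 10 mitochondrial genes did not pass the test as deposited. As deposited, 7 of the 13 had both lines below the lowest primary culture, beside 20.1% of all genes tested. With copies added, 8 of the 13 did. The catalytic subunit mt-Co1 was then at 9591 and 9122 CPM against 10914, 13302 and 18761 CPM, and its log2 difference of -0.55 did not pass (adjusted p = 0.129). Cytochrome b, mt-Cytb, which has no copy in this block, was at 694 and 785 CPM against 832, 979 and 1424 CPM (log2 difference -0.50, adjusted p = 0.0825). Among the primary cultures, the median coefficient of variation was 18.8% for mitochondrial and 6.52% for nuclear subunits. The highest primary culture for mt-Co1 and mt-Cytb was WT male 1.

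Values for the rest were smaller or less certain. The membrane-arm subunits mt-Nd1 and mt-Nd2 had log2 differences of -0.24 and -0.36 with both lines below the primary range. The only protein gene read from the light strand, mt-Nd6, had -0.41, and the third large complex IV subunit mt-Co3 had -0.53 as deposited and -0.38 with copies. The complex V subunits mt-Atp6 and mt-Atp8 had -0.17 and -0.11, and their sign turned positive without PMC-303 (0.06 and 0.05). For mt-Nd3 the sign also depended on the handling, with 0.14 as deposited and -0.20 with copies. The row of mt-Nd4l, at 1.20 CPM in PMC-303, 10.9 CPM in PMC-306 and 2.39 to 17.2 CPM in the primary cultures, had a log2 difference of -1.005 that became -0.50 with copies.

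**Figure D4:**
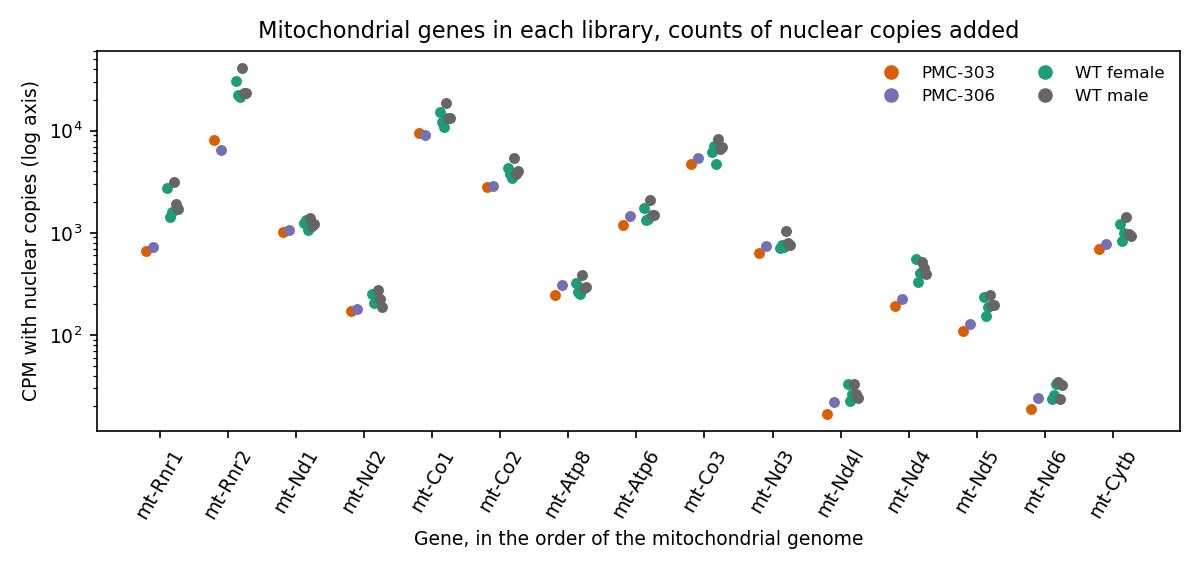
CPM on a log axis of the 13 mitochondrial protein genes and both mitochondrial rRNAs in each library, in genome order and with the counts of nuclear copies added. The lines lie below the primary cultures for both rRNAs and for mt-Nd4, and within or just below their range for mt-Atp8, mt-Atp6 and mt-Nd3.

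Summed over members in CPM, the nuclear level was higher and the mitochondrial level lower in the lines. The nuclear members together made 7076 and 6763 CPM in PMC-303 and PMC-306 and 5404 ± 208 CPM in primary WT PMCs (SD, n = 6, range 5103 to 5697). The mitochondrial members with their copies made 21498 and 22311 CPM in the lines and 24339 to 40022 CPM in the primary cultures. Their ratio to the nuclear sum was 3.04 and 3.30 in the lines and 5.66 ± 0.87 in the primary cultures (SD, n = 6, range 4.77 to 7.22), so the lines lay below every primary culture. On the log2 scale the ratio was 0.82 lower in the lines with copies and 0.86 lower without them. These sums are a description and were not tested. In the primary cultures mt-Co1, mt-Co3 and mt-Co2, with means of 13939, 6670 and 4117 CPM with copies, made up most of the mitochondrial mean of 30634 CPM. None of these genes passed the test with copies added. The sums of nuclear complexes were each above the highest primary culture in both lines, with ratios of the lines to the primary cultures of 1.20, 1.21, 1.34, 1.19 and 1.38 for complexes I to V.

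The mitochondrial rRNAs, transcribed from the same genome, were lower in the lines as well. Together mt-Rnr1 and mt-Rnr2 made 8796 and 7181 CPM in the lines and 22810 to 44238 CPM in the primary cultures. Both were called lower, mt-Rnr1 with a log2 difference of -1.53 (adjusted p = 0.00517) and mt-Rnr2 with -1.86 (adjusted p = 0.00367). The libraries came from a total-RNA kit, and the part of rRNA removal or RNA quality in these values was not tested. In the primary cultures, WT male 1 and WT female 1 had the highest values of both the rRNAs and the summed mitochondrial mRNAs.

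**Figure D5:**
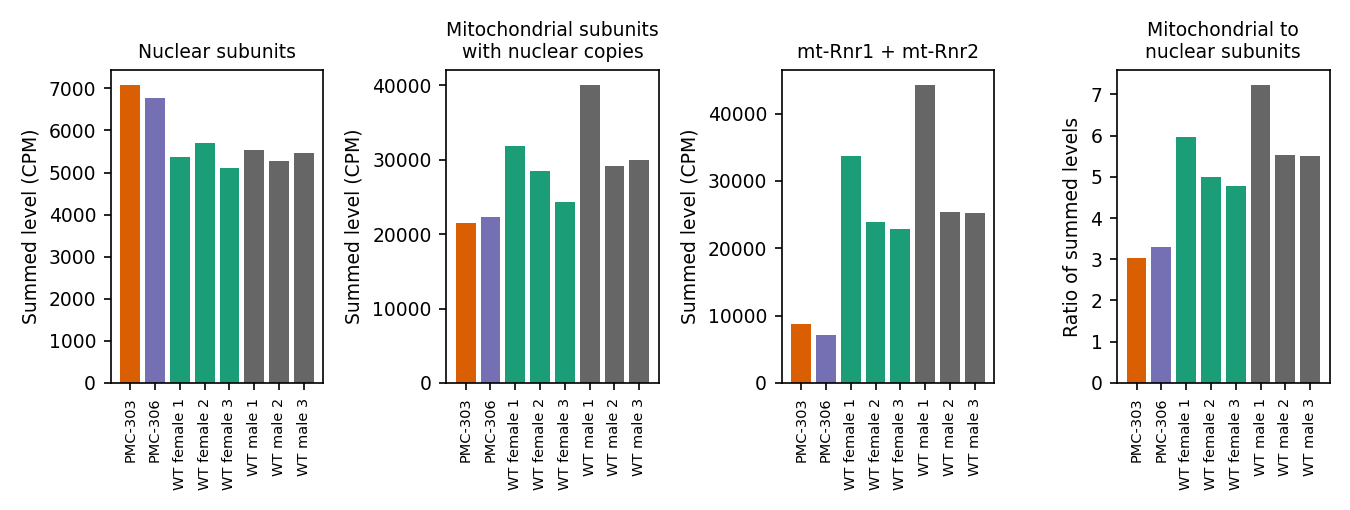
Summed CPM of the nuclear subunits, of the mitochondrial subunits with their nuclear copies and of both mitochondrial rRNAs, and the ratio of the first pair of sums, in each of the 8 libraries. The nuclear sum was highest in PMC-303 (7076) and PMC-306 (6763), while the lines had the lowest bars in the other 3 panels.

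Levels of different subunits can be compared only per length, in TPM. On this scale, the tested nuclear members had a median of 82.8 in the primary cultures and at most 316 ± 40.6 (SD, n = 6) for Atp5b. The 13 mitochondrial members had a median of 1077 as deposited, from 64.8 for mt-Nd4l to 9366 for mt-Co1. With copies added mt-Co1 was at 12116 TPM, mt-Co3 at 10634 TPM and mt-Co2 at 7861 TPM in the primary cultures. In the lines the levels of mt-Co1, mt-Co3 and mt-Co2 were 8264, 8929 and 5967 TPM. Among nuclear complexes the median level was highest for complex IV (168 TPM) and complex V (151 TPM) and lowest for complex I (53.1 TPM). The 3 c-ring genes Atp5g1, Atp5g2 and Atp5g3 stood at 120, 151 and 112 TPM in the primary cultures and at 171, 236 and 207 TPM in the lines.

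Each line was also set against the primary cultures on its own, with no test. The median log2 level relative to the primary mean over nuclear members was 0.37 in PMC-303 and 0.32 in PMC-306. Of the 80 tested nuclear members, 67 and 62 lay above the highest primary culture. Of all 14529 genes tested, 4852 in PMC-303 and 4643 in PMC-306 did. Apart from Cox7a1, only Ndufs5, an accessory subunit of complex I, lay on opposite sides of the primary range, at 41.1 CPM for PMC-303 and 27.4 CPM for PMC-306 against 28.8 to 34.8 CPM. The tested nuclear members were spread over 19 chromosomes, and their median log2 level was above 0 in both lines on each of these chromosomes.

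No member was called between female and male primary WT PMCs. In the limma comparison of 3 against 3 cultures, 6 of 13710 genes tested were called, or 0.0438%, and none of the 93 members was, with 3 of them at an unadjusted p under 0.05 and 456 such genes in all. The median log2 difference, female minus male, was -0.03 for nuclear and -0.20 for mitochondrial members. Of these, mt-Nd3 had 76.2 to 96.9 CPM in female and 131 to 183 CPM in male cultures as deposited, but 712 to 766 and 753 to 1038 CPM with the copy added, where the sexes overlapped.

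Genes that build or feed the chain moved in part with the subunits. Across all genes tested, 18.3% were called higher and 15.5% lower. Of 78 mitochondrial ribosomal protein genes, 33 rose and 1 fell, with a median log2 difference of 0.31. Of 14 tricarboxylic acid cycle genes 10 rose and none fell, with a median of 0.32, among them Fh1, fumarate hydratase (1.02), Idh2, the mitochondrial NADP-dependent isocitrate dehydrogenase (1.02), and Cs, citrate synthase (0.52). Of 15 genes for electron carriers and coenzyme Q synthesis, 5 rose and 1 fell, with a median of 0.11. Those that rose included Cycs, cytochrome c (0.70), and Pdss1, which starts the coenzyme Q side chain (1.19), and Coq10a fell (-0.34). Cyc1, cytochrome c1 of complex III (0.35), rose too and was not a member by its symbol.

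Of 50 tested assembly factors 7 rose and 3 fell, beside 18.3% and 15.5% of all genes. Sco2, a copper chaperone for complex IV, fell (-0.80), and Cmc2, another complex IV assembly factor, rose (1.79) with 73.3 CPM in PMC-303, 19.2 CPM in PMC-306 and 8.81 to 13.2 CPM in the primary cultures. Of 33 tested genes for expression and upkeep of the mitochondrial genome, 6 rose and none fell. The share that rose was near the 18.3% of all genes, and the median log2 difference of this list was 0.06. Tfam, which packages mitochondrial DNA and starts its transcription, was at 34.1 and 33.2 CPM in the lines and at 17.4 to 21.4 CPM in the primary cultures (log2 difference 0.82 ± 0.10, adjusted p = 0.000525). Polg, the mitochondrial DNA polymerase, rose by log2 0.98. Among 10 tested regulators of mitochondrial biogenesis 4 rose, the NRF1 and GABP genes given with the promoters, and Esrra (-0.39) and Ppard (-0.44) fell.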

How the data were processed

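Total RNA of 8 mouse PMC cultures was sequenced by the authors from stranded libraries (TruSeq Stranded Total RNA). Per the submitters' processing notes the reads were trimmed with Trim Galore 0.6.7, aligned with STAR 2.7.9a to GRCm39 and quantified with Salmon 1.5.2. The deposited tables hold estimated counts and TPM per gene and transcript. A spreadsheet had altered 3.37% of the gene count cells. They were restored from the digits, and cells turned into dates with several readings were given the reading nearest their summed transcripts. Over all gene count cells, altered or not, 99.7% differed by under 0.2 counts from their summed transcripts. The decimal point of 21.8% of the TPM cells was placed to fit the counts, after which each library summed to 999967 to 1000290 TPM. Every column was matched to a sample.

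Because of the altered cells, no count model was run. Log2(CPM + 0.1), with library sizes by the trimmed mean of M values, was tested with limma 3.58.1 (R 4.3.3, trend, no covariate), lines against primary cultures and female against male, with Benjamini-Hochberg adjustment over all genes with about 10 counts or more in as many libraries as the smaller group holds and 15 counts in all. Where no adjusted p is given, 0.05 was the threshold. Of the 6 residual degrees of freedom, 5 came from the primary cultures and 1 from the spread between the 2 lines, so the p-values rest mostly on the primary cultures. Counting intervals were not used, and a count of 0 was read as at most 3 counts. Near-copies were found by aligning members to GENCODE M39 transcripts at 95% identity or more. The test was checked on simulated data.

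Members and gene lists were chosen with earlier results of these data known. Named genes were all mitochondrial members, the 3 largest called changes per complex and direction, isoform pairs and Ndufa4, and others are said to be chosen after their values were seen or are given within a list. Alternatives were other scalings, offsets and filters, limma without trend, TPM, each sex alone and each library left out, and, added after seeing the data, the nuclear copies' counts and those of Gm6969. A sex term was not run, since the labels state no sex for the lines, though the paper describes a male karyotype for PMC-306.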

Additional observations from a re-analysis of the deposited data

Results flagged for a closer look

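Cox7a1 and Ndufs5 stood out because the lines lay on opposite sides of the primary cultures. For Cox7a1, the muscle form of a complex IV subunit, the log2 difference of PMC-306 minus PMC-303 was -2.54 (1.42 against 8.77 CPM). For Ndufs5, an accessory subunit of complex I, the log2 difference was -0.58 (27.4 against 41.1 CPM). With 1 library a line, neither difference was tested. The counts of Ndufs5 were fractional in all 8 libraries, and a near-copy, Ndufs5-ps, took 1.05% of their summed counts. None of 42 measures searched had a primary culture far from the other 5, where chance gives about 1 in 20. The search was for single cultures, so a split into sets of cultures, as for Cox6b2 and Gm6969, was outside it.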

How the results depend on the processing

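The number of all genes called, 4920, fell to 2146 with only the female and 3032 with only the male primary cultures and ran from 3847 to 4664 when a library was left out. Nuclear members called higher, 51, numbered 22 and 31 with these smaller groups, 66 with total counts and 35 (without PMC-303) to 51 with a library left out. Nuclear members called lower, 2, numbered 1 with log2(CPM + 1) and 2 to 3 with a library left out. With only the female cultures 1 mitochondrial member, mt-Nd3, was called higher (0.53), and 2 to 4 were called lower with a library left out, with none higher. The nuclear median of 0.36 was 0.50 with TPM and 0.47 with total counts, and 0.33 to 0.38 with a library left out. The mitochondrial median ran from -0.58 to -0.31 and the log2 ratio of mitochondrial to nuclear sums from -0.90 to -0.79 with a library left out, and the ratio was -0.77 with TPM.

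The sign turned for Cox7a1 (-1.59 to 0.94 with a library left out, positive without PMC-306 and called lower without PMC-303), mt-Nd4l (-2.54 to 0.54, positive without PMC-303), mt-Atp6 (0.025 with female cultures only, -0.38 to 0.058), mt-Atp8 (0.028 with TPM, -0.27 to 0.050) and mt-Nd3 (-0.20 with copies, -0.25 with male cultures only). The cause was not tested.

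Deviations of the female and male cultures with the same replicate number had correlations of 0.40, -0.22 and 0.28, so the numbers gave no uniform pairing. With a replicate block 5 genes were called in place of 6, and 0 members. Leaving out a culture gave 5 to 6 genes and 0 members. Lines could not be paired. Precision rests on 2 line libraries, and the depth of the rows shared with nuclear copies does not settle how their reads divide.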
